A study of Mus musculus with 5 samples.

Results

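The genes described here are 39 interferon-stimulated genes, a named list of transcripts that cells make more of when interferon binds its receptors. They were taken by symbol from the 57186 genes in the deposited tables, every one of the 39 was found, and all 39 passed the expression filter that left 16412 genes for testing. MRC2 is a receptor by which fibroblasts and related cells take up collagen. Cardiac atria came from mice with 1 copy of its E990G variant (het) and from wild-type mice (WT). The animals of the series were 4 to 10 months old, 7 het and 8 WT. Analysed here were the libraries of 3 het animals (het 5, het 6 and het 7) and 2 WT animals (WT 7 and WT 8), all of batch 2. The age and sex of each animal and the strain are not given in the labels used here, and neither is how the allele was made. The subject given for the series is cardiac fibroblasts and atrial fibrillation, and no question about interferon is stated.

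Type I interferons signal through a receptor of IFNAR1 and IFNAR2 and activate a complex that includes STAT2 and IRF9, which binds an element known as ISRE in the promoters of its targets. Interferon gamma signals through another receptor to an element known as GAS, and it is the classical inducer of guanylate-binding proteins (GBP) and immunity-related GTPases (IRG), which coat and disrupt the vacuoles of intracellular microbes in mice. Resident macrophages, lymphocytes, endothelial cells and cardiomyocytes can all respond. In bulk tissue a lower level of a gene can mean fewer cells of a type or less RNA per cell, and these cannot be told apart.

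The promoters of the list are shown first, because the elements that define the response can be read in them. RefSeq promoter windows (GRCm38.p6, from 250 bases before to 50 bases after the start) were at hand for 31 of the 39 genes. The run GAAA, any 2 bases and GAAA again, searched on both strands and called ISRE-type here, occurred in 18 of these 31 genes (58.1%), against 3.93% of 26994 other genes and 3.44% of all 32851 windows. The letters TTCNNNGAA, called GAS-type and the same on both strands, occurred in 12 of the 31 genes (38.7%), against 9.52% of other genes and 8.30% of all windows. Both motifs overlapped in 2 windows, those of Bst2 and Ifitm3. Of the GTPase genes, 6 of 7 had a window, all 6 held an ISRE-type match, and 3 of them (Gbp7, Igtp and Irgm2) also held a GAS-type match. A match is a run of letters and was not tested as a binding site.

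The stretches around the matches upstream of the start are printed for genes whose values the results below turn on, in the direction of the gene, with the matched letters in capitals. Isg15 (chr4:156200865-156200906, minus strand) carried 3 overlapping ISRE-type matches. Ifit1 (chr19:34640775-34640823), Ifit3 (chr19:34583363-34583426) and Ifit3b (chr19:34607759-34607822) lie on the plus strand. The Ifit3 and Ifit3b stretches differed at 0 of 64 bases. Gbp2 (chr3:142620594-142620623) and Gbp7 (chr3:142530220-142530302) are also on the plus strand. So are Igtp (chr11:58199501-58199541) and Irgm2 (chr11:58214892-58214932), whose stretches differed at 1 of 41 bases and whose GAS-type match sits just before the ISRE-type one.
Isg15: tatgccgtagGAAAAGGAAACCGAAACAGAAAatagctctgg
Ifit1: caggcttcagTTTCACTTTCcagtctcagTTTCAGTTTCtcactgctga
Ifit3: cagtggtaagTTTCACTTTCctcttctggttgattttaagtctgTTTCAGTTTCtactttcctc
Ifit3b: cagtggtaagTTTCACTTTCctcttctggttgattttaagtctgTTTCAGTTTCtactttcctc
Gbp2: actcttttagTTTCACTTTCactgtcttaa
Gbp7: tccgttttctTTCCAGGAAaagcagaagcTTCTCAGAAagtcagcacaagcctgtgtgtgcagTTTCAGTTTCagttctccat
Igtp: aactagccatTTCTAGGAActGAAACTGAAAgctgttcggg
Irgm2: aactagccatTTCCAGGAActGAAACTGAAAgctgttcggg

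**Figure D1:**
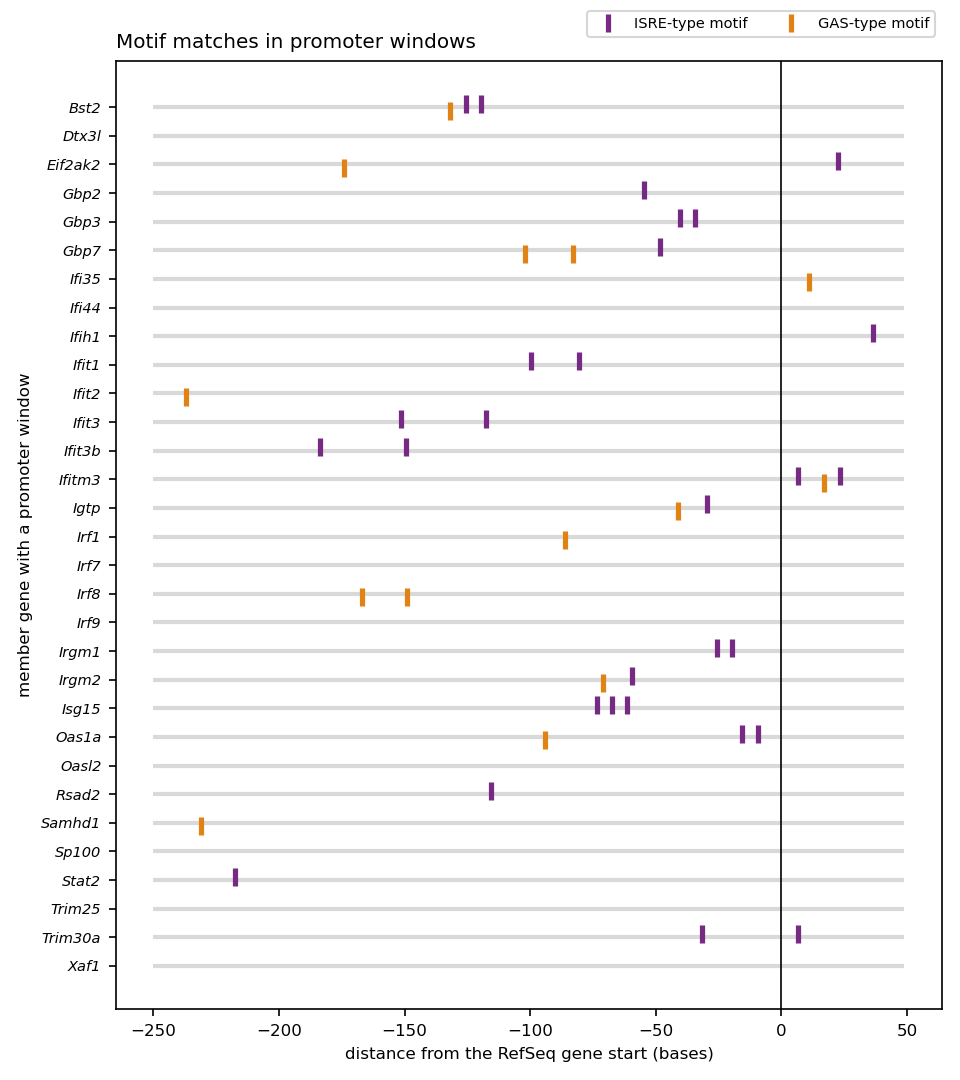
Matches of both motifs in the promoter windows of 31 member genes, 1 line per gene, with the distance from the RefSeq gene start in bases on the x axis. ISRE-type matches lie in 18 genes and GAS-type matches in 12.

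Total expected counts ran from 17784601 (WT 8) to 28353091 (het 7) per library, so low-level genes are least precise in WT 8. Mrc2, the gene that carries the variant, averaged 38.6 ± 7.86 CPM over the 3 het libraries (SD) and 38.9 ± 6.67 CPM over the 2 WT libraries (SD), with a log2 fold change of -0.01 (SE 0.18), and counts do not show the amino acid exchange. All 8 atrial cardiomyocyte markers were tested and present in every library, with a summed level of 63753 to 72448 CPM in het and 90278 and 94006 CPM in WT and a median log2 fold change of -0.51. Of these, 2 were called lower, against 2.66% of all tested genes. Over all tested genes 436 were called lower, and 10 once a trend on transcript length was removed. The 2 markers called were Nppa, the atrial natriuretic peptide gene (-0.64, edgeR adjusted p = 0.0410), and Myl4, an atrial myosin light chain gene (-0.68, edgeR adjusted p = 0.0305). Ttn, the titin gene, was at 0.30 with no call. In the authors' deposited table of het over WT, Nppa was at -0.06 and Myl4 at 0.16. Ddx3y, on the Y chromosome, reached 938 expected counts in WT 7 and at most 3 in the other 4 libraries. Xist, expressed from the inactive X, had 13247 to 15279.6 expected counts in the het libraries, 21.5 in WT 7 and 6117 in WT 8. By these genes WT 7 is the only library of male pattern, so sex and whatever else sets WT 7 apart cannot be told apart. The 3 het libraries are all of female pattern, so sex and genotype are partly mixed in every fold of het over WT. Levels below are expected counts scaled to library size by TMM (CPM), and fold changes are log2 values of het over WT. A call means an adjusted p under 0.05 over all 16412 genes in edgeR's quasi-likelihood test.

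No member of the list was called different between the genotypes, which with 3 against 2 libraries does not show that their levels are equal. Of the 39 genes, 0 were called higher and 0 lower by edgeR, where 2.99% of all tested genes were called higher and 2.66% lower, 5.64% together. DESeq2 and limma-voom likewise called 0 of the 39. At an unadjusted p under 0.05, 5 of the 39 were higher and 0 lower in edgeR, against 12.9% and 11.9% of all tested genes. The log2 fold changes ran from -0.27 (Ifitm3) to 1.05 (Gbp4), 33 above 0 and 6 below, with a median of 0.33, where the median over all tested genes was -0.0014 and 49.9% lay above 0. The sum over the 39 genes was 748 CPM in het 5, 1586 CPM in het 6 and 926 CPM in het 7, against 858 CPM in WT 7 and 859 CPM in WT 8. The het 6 library stood far above the other 4, while het 5 lay below both WT libraries and het 7 just above them.

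The het 6 library stood highest for most members. It was the highest of the 5 libraries for 34 of the 39 genes, against 22.2% of all tested genes, and het 5 was the lowest for 24 of them, against 16.1%. Without het 6 the median log2 fold change of the 39 genes was -0.0091, with 19 of 39 above 0. Without het 5 it was 0.50, with 35 of 39 above 0, and 17 genes were higher at an unadjusted p under 0.05, against 10.8% of all genes in that fit. The adjusted test called 0 of the 39 in both of these fits, where 0.0306% of genes were called higher without het 6 and none without het 5. Without het 6, 1 member was higher at an unadjusted p under 0.05, against 9.71% of all genes. Keeping every gene with a count in the test, without an expression filter, called 8 of the 39 higher, against 4.13% of its genes. The het 6 level was at least 2 times that of every other library for 8 members, against 0.561% of all tested genes. These were the 7 GTPase genes and Zbp1, chosen for description after their values were seen.

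**Figure D2:**
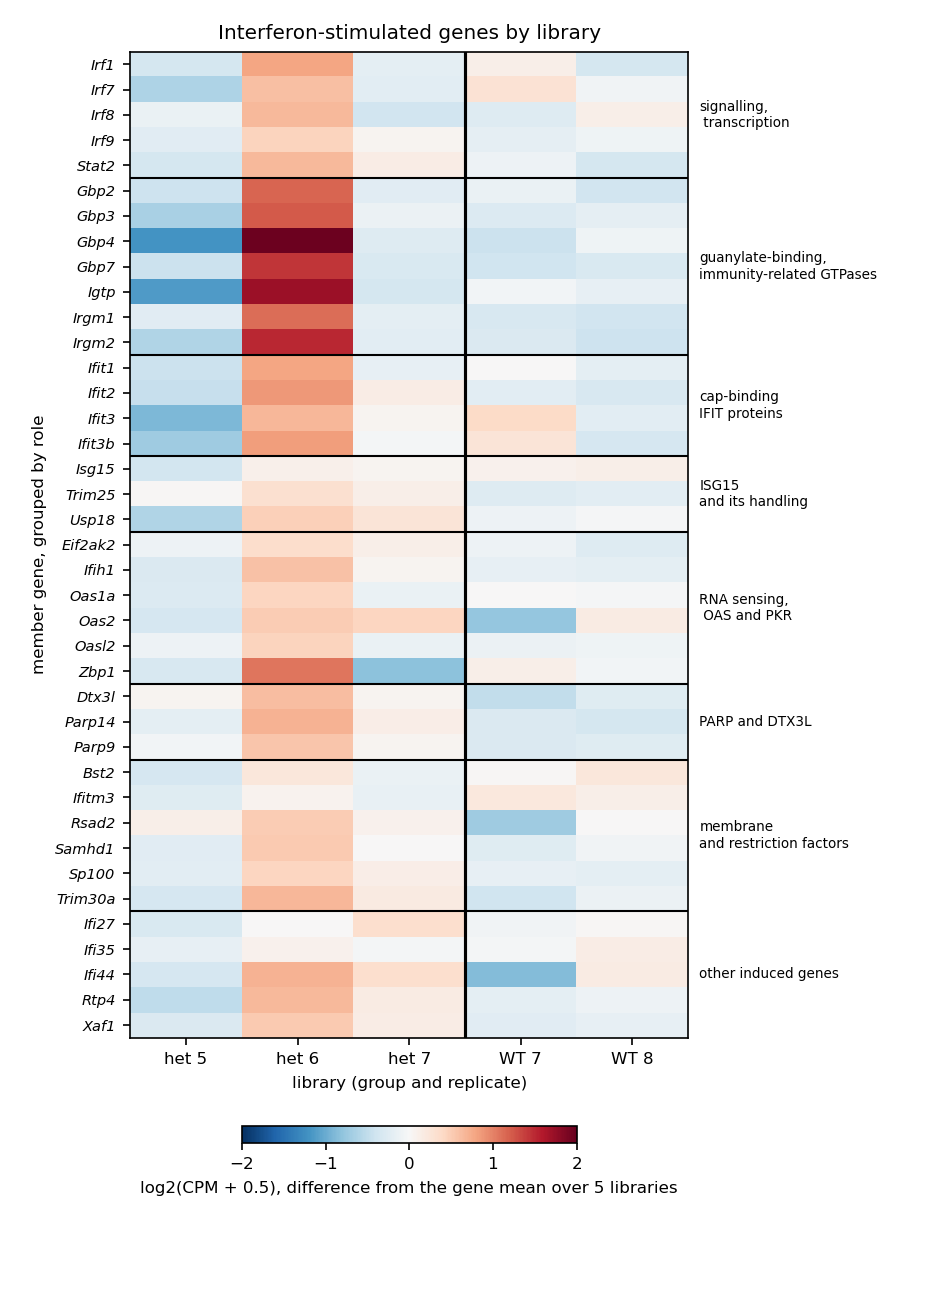
Each row is 1 of the 39 genes, grouped by role, and each column 1 library. Colour is log2(CPM + 0.5) minus the gene's mean over the 5 libraries, and the het 6 column is the highest for 34 genes, most strongly for the GTPases.

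By role, the median log2 fold change was highest for the GTPases, at 0.74 with all libraries and -0.07 without het 6, and for the PARP and DTX3L genes, at 0.58 and 0.30. The IFIT genes had medians of 0.22 with all libraries and -0.29 without het 6, and the signalling genes 0.26 and -0.17. The RNA sensors had medians of 0.26 and 0.03, and the membrane and restriction factors 0.31 and 0.10. The PARP and DTX3L sum was 72.0, 121 and 82.5 CPM in het 5, het 6 and het 7, against 61.0 and 62.6 CPM in WT 7 and WT 8. The ISG15 group, with medians of 0.20 and -0.04, summed to 48.7, 63.7 and 55.9 CPM in het, against 44.7 and 46.4 CPM in WT. In both sums every het library lay above both WT libraries, which held for 21.1% of single tested genes. Most of the ISG15 group sum was Trim25, at 41.2, 50.8 and 44.2 CPM in het and 33.9 and 35.2 CPM in WT. For Isg15 and Usp18 the groups overlapped.

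Markers of macrophages were also highest in het 6. Of 12 macrophage markers all were tested and 11 had their highest value in het 6, against 22.2% of all tested genes. In those 11 it was 1.05 (C1qc) to 1.58 (Cd163) times the next library. Of the 12, 2 were called higher, against 2.99% of all tested genes. Their median log2 fold change was 0.36, and 0.20 without het 6. C1qa, C1qb, C1qc and Cd68 were at 0.10, 0.06, 0.14 and 0.10 with no call. Their summed level was 442, 539 and 391 CPM in het 5, het 6 and het 7, against 349 and 361 CPM in WT 7 and WT 8. Adgre1, which encodes the macrophage surface protein F4/80, rose by 1.14 (SE 0.22, edgeR adjusted p = 0.0297), and Cd163, the haptoglobin-haemoglobin scavenger receptor gene, by 1.03 (SE 0.22, edgeR adjusted p = 0.0364). Without het 6 their log2 fold changes were 0.89 and 0.76. In the authors' deposited table of het over WT they were -0.06 and -0.02. The fit without het 5 called 0 genes of any kind higher, so neither gene was called there. The 16 lymphocyte markers summed to 12.8, 19.4 and 9.95 CPM in het 5, het 6 and het 7, against 13.5 and 10.5 CPM in WT 7 and WT 8, and 0 of the 11 tested were called. Het 6 was the highest library for 6 of those 11. Trac, the T cell receptor gene of the highest level among them, had 3.56, 4.12 and 3.48 CPM in het and 4.63 and 4.21 CPM in WT. Cd8a, of cytotoxic T cells, had 1.41, 3.76 and 0.689 CPM in het and 0.492 and 0.175 CPM in WT. Its WT values rest on 12 and 3 expected counts. Cd8b1, of the same list, had 0.657, 0.806 and 0.172 CPM in het and 0.492 and 0.467 CPM in WT, so its groups overlapped. The 7 dendritic cell markers summed to 10.5, 14.9 and 5.51 CPM in het 5, het 6 and het 7, against 9.10 and 7.54 CPM in the WT libraries. The 7 endothelial markers had a summed level of 1159 to 1335 CPM in het, against 1114 and 1203 CPM in WT. The part of these cells in the het 6 values was not tested.

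Guanylate-binding and immunity-related GTPases differed most between libraries. Gbp4, a member of the guanylate-binding family, had 10.6, 99.0 and 20.9 CPM in het 5, het 6 and het 7, against 18.4 and 23.5 CPM in WT 7 and WT 8. Igtp, an immunity-related GTPase also known as Irgm3, had 10.5, 78.2 and 18.4 CPM in het 5, het 6 and het 7, against 22.6 and 21.1 CPM in the WT libraries. For both genes het 5 was the lowest library and het 6 was 4.20 and 3.46 times the next highest, so the WT values lay inside the het range. Irgm2, a regulatory member of the IRG family, had 27.6, 121 and 36.3 CPM in het and 34.5 and 31.5 CPM in WT. Gbp7 had 22.8, 84.1 and 25.0 CPM in het and 23.4 and 24.8 CPM in WT. Again it was het 6 alone that stood above the rest.

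Gbp2 had 28.4, 85.8 and 32.6 CPM in het 5, het 6 and het 7, against 34.7 and 29.3 CPM in WT 7 and WT 8. Gbp3 had 13.9, 52.7 and 20.4 CPM in het and 18.2 and 19.5 CPM in WT. The ratio of het 6 to the next highest library was 2.47 for Gbp2, 2.58 for Gbp3 and 2.5 for Irgm1. Irgm1, which governs other IRG proteins, was the only one of the 7 with no overlap between the groups, at 26.6, 68.0 and 27.2 CPM in het against 24.8 and 23.7 CPM in WT. Among all tested genes 21.1% had every het library above both WT libraries. The log2 fold changes of the 7 genes ran from 0.61 (Gbp2) to 1.05 (Gbp4), with edgeR adjusted p from 0.511 to 0.770. Without het 6 they ran from -0.59 (Igtp) to 0.16 (Irgm1), and 6 of the 7 turned below 0. The summed level of the 7 genes was 141, 588 and 181 CPM in het 5, het 6 and het 7, against 177 and 173 CPM in WT 7 and WT 8. Words of 100 bases shared with another gene made up at most 10.0% of any of these transcripts (Gbp7).

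**Figure D3:**
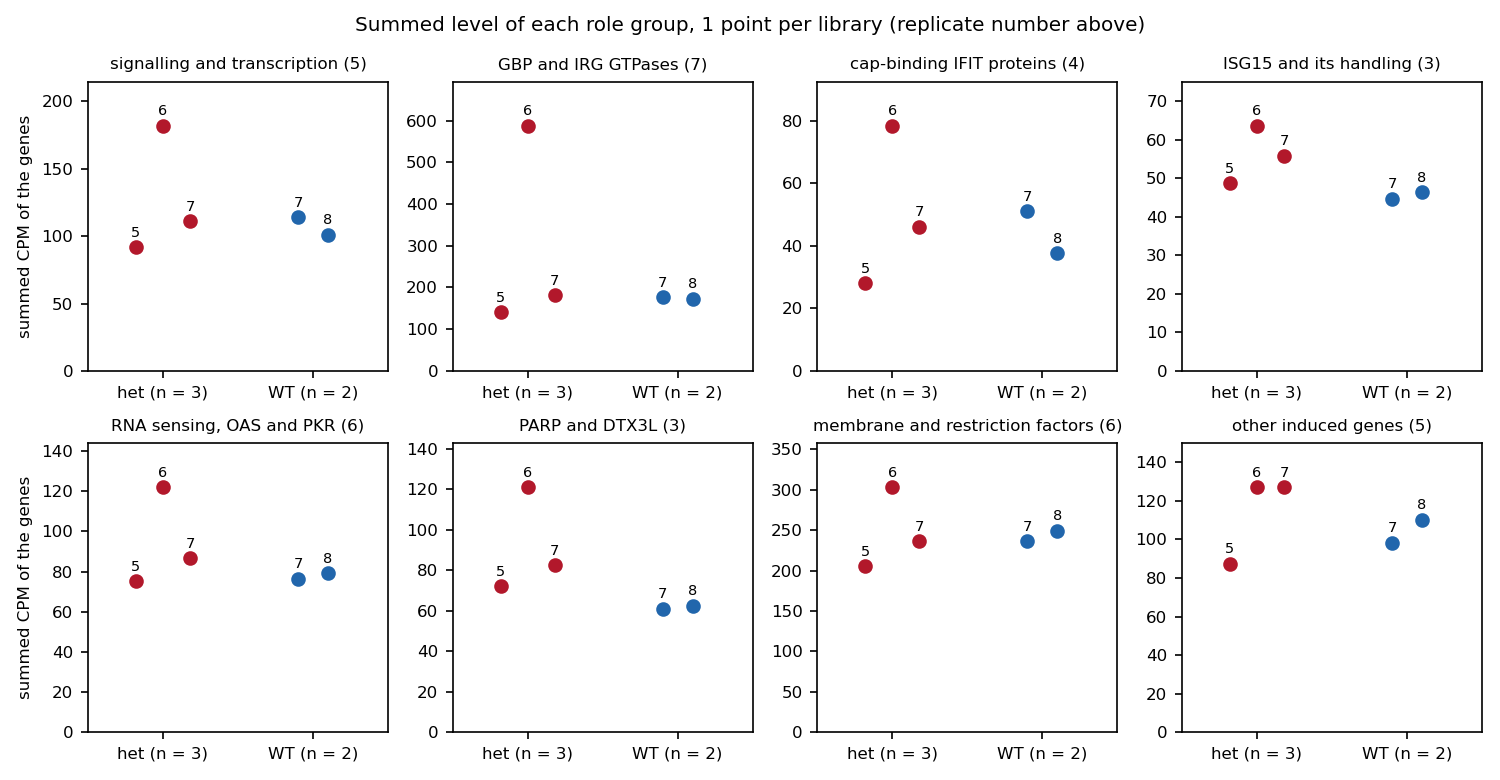
Summed CPM of each role group in every library, het at left (n = 3) and WT at right (n = 2), with the replicate number above each point. In the GTPase panel het 6 stands at 588 CPM, and the other 4 libraries lie between 141 and 181 CPM.

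The transcription factors of the list were also highest in het 6, at 1.24 to 1.60 times the next library. Stat2, a subunit of the complex that binds ISRE elements, had 23.3, 47.6 and 33.4 CPM in het 5, het 6 and het 7, against 28.1 and 23.4 CPM in WT 7 and WT 8. Irf9, its DNA-binding partner, had 21.6, 35.0 and 26.3 CPM in het and 22.3 and 24.0 CPM in WT. In both genes het 5 lay below both WT libraries and het 6 and het 7 above them. Irf1, a factor that interferon gamma induces, had 24.9, 55.3 and 27.8 CPM in het and 34.5 and 24.8 CPM in WT. Irf7, which amplifies type I interferon production, had 9.33, 22.2 and 12.5 CPM in het and 17.9 and 13.8 CPM in WT. Both WT libraries of Irf7 lay within the het range, and for Irf1 WT 7 lay within it and WT 8 just below it. Irf8, needed for macrophage and dendritic cell development, had 12.6, 22.1 and 10.6 CPM in het and 11.6 and 15.2 CPM in WT. The 5 folds ran from -0.11 (Irf7) to 0.43 (Stat2), with edgeR adjusted p of at least 0.429.

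Ligands were close to the detection limit. Of 21 interferon genes measured, 15 had no expected count in any library, and 0 passed the expression filter. Ifng, the interferon gamma gene, had 4, 8 and 1 expected counts in het 5, het 6 and het 7 and 2 and 0 in WT 7 and WT 8. With at most 8 counts per library these values do not allow a comparison. Of 6 receptor genes 0 were called. Their median log2 fold change was -0.0053, and their summed level was 325, 357 and 339 CPM in het against 325 and 351 CPM in WT. Among them Il10rb, a receptor subunit shared with type III interferons, had an edgeR adjusted p of 0.914 and Ifngr2, of the interferon gamma receptor, 0.947.

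Of 15 tested genes of JAK-STAT signalling and its feedback 0 were called, with a median log2 fold change of 0.23 with all libraries and 0.15 without het 6. Of 24 nucleic acid sensing genes 1 was called higher and 0 lower, against 2.99% and 2.66% of all tested genes. Their median was 0.29 with all libraries and 0.03 without het 6. For 15 of them het 6 was the highest library, against 22.2% of all tested genes. The called gene was Tlr8, an endosomal receptor of single-stranded RNA, at 2.86, 2.37 and 2.62 CPM in het against 0.697 and 0.409 CPM in WT. It rose by 2.20 (SE 0.44, edgeR adjusted p = 0.0262), from only 17 and 7 expected counts in WT 7 and WT 8. In the fit without het 5, 0 genes of any kind were called higher. The authors' deposited table lists Tlr8 at 0.47. Tlr8 did not follow the het 6 order, since het 5 was its highest library.

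IFIT genes encode proteins that bind RNA with foreign 5′ ends. Ifit2 had 8.02, 20.9 and 12.5 CPM in het 5, het 6 and het 7, against 9.67 and 8.88 CPM in WT 7 and WT 8. Ifit1 had 6.71, 16.3 and 8.16 CPM in het and 9.26 and 7.95 CPM in WT. Het 6 was the highest and het 5 the lowest library for all 4 IFIT genes. Ifit3 had 9.76, 29.6 and 19.4 CPM in het and 24.4 and 16.0 CPM in WT, and Ifit3b, its near copy, 3.66, 11.7 and 6.13 CPM in het and 7.71 and 4.91 CPM in WT. The log2 fold changes were 0.57 (SE 0.39) for Ifit2, 0.27 (SE 0.38) for Ifit1, 0.18 (SE 0.50) for Ifit3b and -0.05 (SE 0.56) for Ifit3, with edgeR adjusted p of at least 0.433. Of the 100-base words of Ifit3 transcripts 31.7% also occur in Ifit3b, so the split of reads between those 2 genes rests on the authors' estimation and is uncertain.

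ISG15 is a ubiquitin-like protein that is joined to other proteins. Isg15 had 5.16, 7.30 and 7.03 CPM in het 5, het 6 and het 7, against 7.21 and 7.42 CPM in WT 7 and WT 8, and was among the 5 members whose highest library was not het 6. Usp18, which encodes the protease that removes ISG15 and dampens receptor signalling, had 2.39, 5.59 and 4.72 CPM in het and 3.61 and 3.80 CPM in WT. Both genes had overlapping groups. Trim25, a ubiquitin ligase gene of the RIG-I pathway, had 41.2, 50.8 and 44.2 CPM in het and 33.9 and 35.2 CPM in WT. For Trim25 every het library lay above both WT libraries, as for 21.1% of all tested genes. Its log2 fold change was 0.39 (SE 0.14, edgeR adjusted p = 0.0953), and 0.20 once trends on length and GC content were removed.

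PARP9 and DTX3L form a complex that modifies histones and antiviral proteins, and PARP14 is another ADP-ribosyltransferase of the interferon response. Dtx3l had 18.3, 27.2 and 18.2 CPM in het 5, het 6 and het 7, against 12.3 and 14.7 CPM in WT 7 and WT 8. Parp9 had 20.2, 31.1 and 21.9 CPM in het and 17.1 and 17.8 CPM in WT. Parp14 had 33.5, 62.5 and 42.4 CPM in het and 31.5 and 30.2 CPM in WT. In all 3 genes each het library lay above both WT libraries, which was true of 7 of the 39 members and of 21.1% of all tested genes. Dtx3l had the smallest adjusted p of the list, with a log2 fold change of 0.65 (SE 0.20, edgeR adjusted p = 0.0715). The fold was 0.48 (SE 0.19, edgeR adjusted p = 0.134) for Parp9 and 0.58 (SE 0.25, edgeR adjusted p = 0.202) for Parp14. Without het 6 the folds were 0.44, 0.27 and 0.30 for Dtx3l, Parp9 and Parp14, and they were 0.42, 0.38 and 0.35 once trends on length and GC content were taken out. Without het 6 this group alone stayed positive in each of its genes beside a member median of -0.0091. It holds only 3 genes, all on chromosome 16, where the largest group holds 7. The other genes with no overlap on the higher side were Trim25, Rsad2, Eif2ak2 and Irgm1.

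Sensors and effectors of foreign nucleic acid had het 6 as their highest library in all 6 genes, at 1.05 (Oas2) to 2.07 (Zbp1) times the next one. Ifih1, which encodes the cytosolic sensor MDA5, had 16.9, 31.6 and 21.7 CPM in het 5, het 6 and het 7, against 18.5 and 18.2 CPM in WT 7 and WT 8. Eif2ak2, the gene of the translation-blocking kinase PKR, had 15.9, 21.8 and 18.5 CPM in het and 15.8 and 14.1 CPM in WT, a log2 fold change of 0.32 (SE 0.17, edgeR adjusted p = 0.255). It was 0.20 without het 6 and 0.11 once trends on length and GC content were taken out. The fold of Ifih1 was 0.35 with all libraries, 0.08 without het 6 and 0.03 without those trends. Het and WT overlapped for Ifih1. For Eif2ak2 every het library lay above both WT libraries, as for 21.1% of all tested genes. Oas2, which makes the oligoadenylates that activate RNase L, had 6.43, 11.9 and 11.3 CPM in het and 4.63 and 9.29 CPM in WT. Its fold of 0.52 was 0.09 without WT 7 and 1.11 without WT 8. Oasl2, an OAS-like gene, had 30.5, 45.0 and 30.1 CPM in het and 30.2 and 31.0 CPM in WT. Oas1a had 3.10 to 5.37 CPM in het and 3.89 and 3.80 CPM in WT, but 40.9% of its 100-base words are shared with Oas1g. Zbp1, a sensor of Z-form nucleic acid, had 2.30, 6.80 and 1.48 CPM in het and 3.28 and 2.86 CPM in WT, and its fold was -0.71 without het 6, the lowest of any member.

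Among membrane and restriction factors, Ifitm3 had the highest level of the list per transcript length, with a mean of 282 TPM over the 5 libraries, followed by Ifi27 with 154 TPM, Bst2 with 100.1 TPM, Sp100 with 23.2 TPM and Oasl2 with 22.2 TPM. Ifitm3, which blocks the entry of viruses from endosomes, had 72.1, 89.6 and 77.4 CPM in het 5, het 6 and het 7, against 98.9 and 93.1 CPM in WT 7 and WT 8. It was the only member whose het libraries all lay below both WT libraries, which held for 21.1% of all tested genes, with a log2 fold change of -0.27 (SE 0.13, edgeR adjusted p = 0.225). On the TPM scale its groups overlapped, and once trends on length and GC content were removed its fold was 0.09. Its effective length was 292 bases, the shortest of the members. Bst2, the gene of tetherin, which holds virions at the cell surface, had 32.8, 48.6 and 37.8 CPM in het and 42.5 and 48.9 CPM in WT. Its fold of -0.20 (SE 0.16) likewise was 0.26 without those trends.

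Rsad2, the gene of the antiviral enzyme viperin, had 12.7, 16.8 and 12.4 CPM in het 5, het 6 and het 7, against 6.97 and 11.8 CPM in WT 7 and WT 8. Each het library lay above both WT libraries, as for 21.1% of all tested genes, and the log2 fold change was 0.58 (SE 0.24, edgeR adjusted p = 0.162). Without WT 8, which leaves the low WT 7 as the only WT library, assumed to vary like the het libraries, it was 1.02 with an edgeR adjusted p of 0.0417, the 1 member called in that fit, where 3.36% of genes were called higher. Without WT 7 it was 0.24. Sp100, of nuclear bodies, had 30.5, 47.6 and 38.9 CPM in het and 31.3 and 30.9 CPM in WT. Trim30a, a mouse regulator of inflammatory signalling, had 11.6, 23.8 and 16.8 CPM in het and 11.1 and 13.6 CPM in WT. Samhd1, which breaks down deoxynucleotides, had 45.0, 76.5 and 53.0 CPM in het and 44.7 and 50.4 CPM in WT. In these 3 genes the groups overlapped through het 5, while het 6 and het 7 lay above both WT libraries.

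Of the remaining induced genes Ifi44 had 6.0, 12.8 and 9.82 CPM in het 5, het 6 and het 7, against 3.98 and 8.71 CPM in WT 7 and WT 8. Xaf1, the gene of a partner of the apoptosis inhibitor XIAP, had 7.97, 14.4 and 10.9 CPM in het and 8.36 and 8.76 CPM in WT. Rtp4, a receptor transporter gene, had 9.33, 21.4 and 15.2 CPM in het and 11.8 and 12.6 CPM in WT. All 3 had het 6 highest and overlapping groups. Ifi27 had 45.9, 57.1 and 71.5 CPM in het and 54.1 and 57.4 CPM in WT, the only member with het 7 highest, and Ifi35 18.2, 21.7 and 20.0 CPM in het and 20.0 and 22.7 CPM in WT. The 5 folds ran from -0.10 (Ifi35) to 0.60 (Ifi44), and that of Ifi44 was 0.13 without WT 7 and 1.28 without WT 8.

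**Figure D4:**
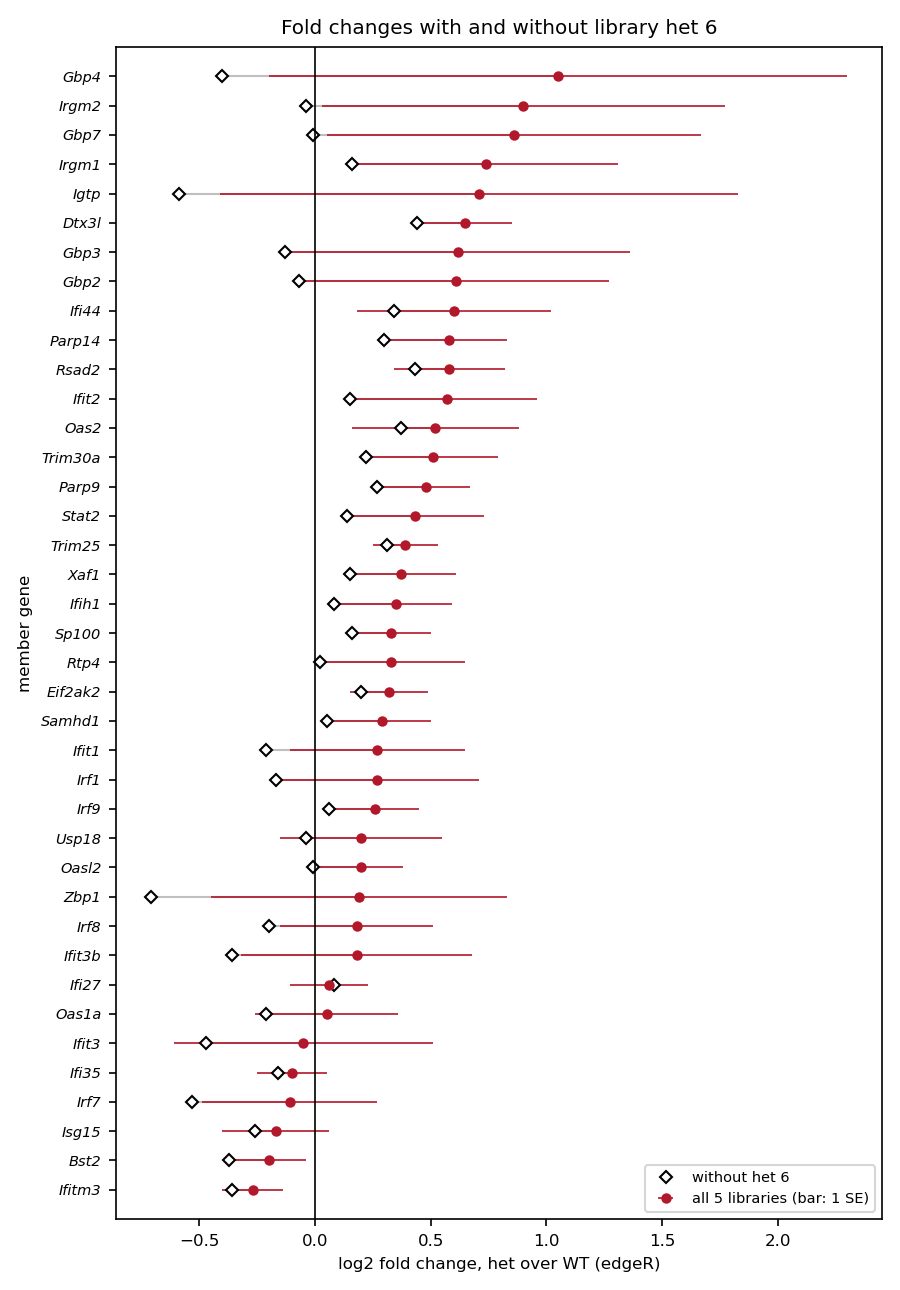
Log2 fold change of het over WT for each of the 39 genes with all 5 libraries (filled circles, bars of 1 SE) and without het 6 (open diamonds). The median over the genes is -0.0091 without het 6 and 0.33 with all libraries, and the widest bars belong to Gbp4 (SE 1.25) and Igtp (SE 1.12).

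The leading transcript was the same in all 5 libraries for 35 of the 39 genes and held over 90% of the expected counts in every library for 18. Its share did not overlap between the groups for 5 of the 39, higher in het for 3 and lower for 2, against 21.5% of 16161 genes in either direction. Irf9 had 57.8%, 66.5% and 63.6% of its counts in ENSMUST00000130697 in het 5, het 6 and het 7, against 47.3% and 45.2% in WT 7 and WT 8. The shares of Irf8 (93.5% to 97.3% in het, 86.6% and 91.2% in WT) and Zbp1 (44.7% to 58.6% in het, 36.1% and 42.4% in WT) were also higher in het. Parp9 had 61.9%, 78.1% and 68.8% in ENSMUST00000023622 in het and 85.3% and 88.4% in WT. Sp100, the other gene with lower shares in het, had 44.7% to 55.0% in het and 56.3% and 63.0% in WT. The shares were not tested for a difference, since an exact permutation test of 3 against 2 libraries cannot give a two-sided p under 0.2. Gbp3, Irf7, Xaf1 and Zbp1 had different leading transcripts in different libraries.

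The authors' deposited table covers their own comparison of het against WT, which may include the 5 libraries used here, and it holds all 39 genes. In it 28 of 39 log2 fold changes were above 0, against 44.3% of all 14927 genes, and their median was 0.14. None had an adjusted p under 0.05, and none of the 14927 genes did, while 3 members had an unadjusted p under 0.05, against 5.60% of all genes. In the authors' deposited table these were Eif2ak2 at 0.83 (interval 0.30 to 1.37, adjusted p = 0.348), Ifit1 at 0.96 (0.05 to 1.87, adjusted p = 0.632) and Rsad2 at 1.30 (-0.04 to 2.63, adjusted p = 0.632). The same table gives Gbp4 as -0.33 (-1.68 to 1.01), Igtp as -0.10 (-1.21 to 1.0) and Irgm2 as -0.06 (-0.92 to 0.81), where the 5 libraries gave 1.05, 0.71 and 0.90 in edgeR. Dtx3l stood at 0.26 and Parp9 at -0.00078 in the authors' deposited table. Isg15, at -0.17 in the 5 libraries, was listed at 0.52 (-0.17 to 1.21) in the authors' deposited table.

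**Figure D5:**
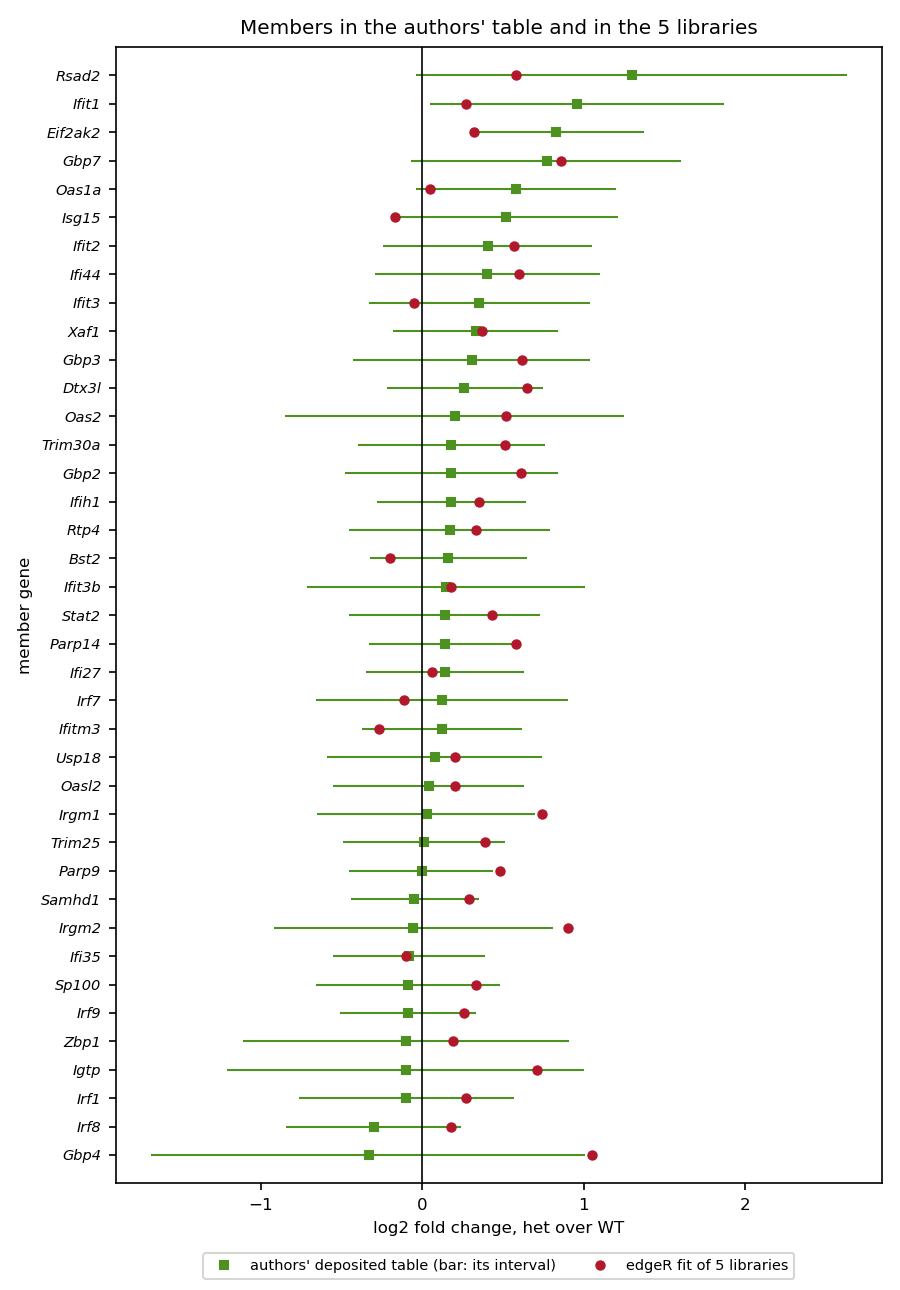
Log2 fold change of het over WT for the 39 genes in the authors' deposited table (squares, bars for the interval it gives) and in the edgeR fit of the 5 libraries (circles). Rsad2, Ifit1 and Eif2ak2 have the highest deposited values of the 39 at 1.30, 0.96 and 0.83, and Gbp4 is its lowest member at -0.33.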

How the data were processed

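Libraries were stranded polyA libraries of snap-frozen atria, per the labels' protocols. The submitters' processing notes name GRCm39 as build and, without versions, STAR and RSEM, Trim Galore, FastQC and MultiQC, SAMtools, edgeR and limma. Per the file headers, the deposited gene and transcript tables hold the authors' RSEM expected counts, not normalized, and TPM, and the transcript tables the authors' isoform percent. In the authors' deposited table of het over WT are p-values, scores (moderated t) and log2 fold changes, whose samples and settings are not given in the sources used here.

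Expected counts were rounded, filtered with filterByExpr (16412 of 57186 genes kept), TMM-scaled, and fitted with edgeR (robust quasi-likelihood test, Benjamini-Hochberg adjustment). SEs are the absolute log2 fold change over the square root of F. Depth was 17784601 to 28353091 counts per library. The 5 libraries are separate samples of the series' animals. The members, gene lists and tests were chosen with earlier results of these data known. Per-library values were planned for called members, the 12 with the smallest p and the 5 of highest TPM, and others were added after the values were seen. In other lists up to 4 called genes, or 2 of the highest level, were to be named.

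Alternatives were other scalings and filters, DESeq2, limma-voom, limma-trend on log2(TPM + a pseudocount of 0.1 or 1), per-library length and GC trends (mgcv, GC known for 97.9% of tested genes) and each library left out. GC content, chromosomes and 100-base words came from GENCODE M21, of another build. The code was tested on simulated data. In counts drawn with 1 common biological coefficient of variation of 0.18, 65% of 100 genes changed by a log2 value of 1 were called. Spreads that differ by gene were not simulated. The SEs of the 7 GTPase genes ran from 0.57 to 1.25, so the 65% does not apply to them. Versions used were mgcv 1.9.3, DESeq2 1.42.0, limma 3.58.1 and edgeR 4.0.16, run in R 4.3.3. A gene of the signalling list is not reported here.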

Additional observations from a re-analysis of the deposited data

How the results depend on the processing

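Of 16 alternative settings, 14 called 0 of the 39 members. Testing every gene with a count called 8 higher (Ifit2, Stat2, Rsad2, Parp9, Parp14, Dtx3l, Trim25 and Trim30a), where 4.13% of genes were called higher, and leave-one-out fits called 0 to 1. Of 624 member fold changes 571 kept direction and side of the threshold and 44 reversed. Genes called higher and lower over the whole table, 490 and 436 in the edgeR fit, were 867 and 780 with DESeq2, 1304 and 907 without an expression filter, 11 and 10 with the length trend removed, 17 and 7 once GC was removed too, 237 and 222 with limma-voom, 15 and 7 on log2(TPM + 0.1) and 4 and 4 on log2(TPM + 1). With library size alone 795 were higher. Leave-one-out fits called 0 to 588 higher and 0 to 290 lower, and the cause of these moves was not tested.

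Folds that reversed were, once trends on length and GC were taken out, Isg15 0.21, Irf7 0.12, Ifi35 0.18, Bst2 0.26 and Ifitm3 0.09. With the length trend removed they were Ifit3 0.08, Isg15 0.21, Irf7 0.0087, Ifi35 0.11, Bst2 0.15 and Ifitm3 0.11. On log2(TPM + 0.1) they were Ifit3 0.01, Isg15 0.04, Ifi35 0.05 and Zbp1 -0.13, and on log2(TPM + 1) Ifit3 0.02, Isg15 0.04, Ifi35 0.05, Bst2 0.00023 and Zbp1 -0.05. Without an expression filter Ifit3 was 0.0028, and with limma-voom Zbp1 was -0.19.

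Leaving out 1 library at a time gave ranges across 0 of -0.21 to 0.50 for Ifit1, -0.47 to 0.30 for Ifit3, -0.36 to 0.55 for Ifit3b, -0.17 to 0.54 for Irf1, -0.53 to 0.12 for Irf7, -0.20 to 0.40 for Irf8, -0.12 to 0.21 for Ifi27 and -0.19 to 0.0066 for Ifi35. They were -0.21 to 0.20 for Oas1a, -0.01 to 0.30 for Oasl2, -0.04 to 0.48 for Usp18, -0.71 to 0.56 for Zbp1, -0.07 to 0.88 for Gbp2, -0.13 to 0.95 for Gbp3, -0.40 to 1.51 for Gbp4, -0.0091 to 1.17 for Gbp7, -0.59 to 1.14 for Igtp and -0.04 to 1.24 for Irgm2. No paired analysis was possible because the groups share only 1 replicate number. With 3 and 2 libraries, a single library can set a fold, and genes of a few CPM are the least precise.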

Other observations

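Most tested genes of a wider interferon list outside the 39 were also highest in het 6, and those named here were picked after their values were seen. Of the 79 tested genes of this wider list 0 were called by edgeR. At an unadjusted edgeR p under 0.05, 6 were higher and 5 lower, against 12.9% and 11.9% of all tested genes. For 60 of the 79 het 6 was the highest library, against 22.2% of all tested genes. Their summed level was 1655, 2638 and 1759 CPM in het 5, het 6 and het 7, against 1872 and 1882 CPM in WT 7 and WT 8, and their median log2 fold change was 0.16 with all libraries and -0.14 without het 6. Iigp1, an IRG effector, had 20.5, 173 and 31.2 CPM in het and 41.6 and 37.9 CPM in WT. Tgtp2, of the same family, had 10.8, 92.7 and 18.3 CPM in het and 15.7 and 20.5 CPM in WT. Ifitm2, of the wider list, went the other way, at 97.3, 78.1 and 82.7 CPM in het and 110.4 and 112 CPM in WT. Nlrc5, the activator of MHC class I genes, from the nucleic acid sensing list, had 6.14, 25.2 and 8.20 CPM in het and 6.52 and 5.67 CPM in WT. Of the 14186 genes of at least 1 CPM, 70 were at least 2 times as high in het 6 as in every other library, 8 of them members. The same count was 12 for het 5, 30 for het 7, 33 for WT 7 and 28 for WT 8, with 0 members in each.

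Erythroid markers summed to 5277, 2630 and 2590 CPM in het 5, het 6 and het 7, against 599 and 2228 CPM in WT 7 and WT 8.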
